A study of Sus scrofa with 6 samples.

Results

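OCA2 (titled oculocutaneous albinism II) is the gene of a multi-pass membrane protein of the melanosome, the organelle of pigment cells in which melanin is made. It is reported here through the 1 probe set that carries its name, Ssc.15775.1.S1_at, out of 23935 probe sets other than controls. Names were at hand for listed probe sets alone, so any further OCA2 probe set on the array was not analysed here. The gene was chosen by its symbol from the authors' deposited table of 550 probe sets that differed between 2 muscles, which names 78 gene symbols in all. Its muscle difference had therefore decided its choice, and it is given as a description with no test. The arrays carried RNA of 3 Meishan gilts of one litter, slaughtered at 150 days, with 3 Affymetrix porcine GeneChips of longissimus dorsi and 3 of soleus. The labels name no treatment and no genotype beyond the breed. The longissimus dorsi is a back muscle classed by the labels as fast and glycolytic. The other muscle is titled soleus but abbreviated SE in the protocol, which says that its deep part was taken and classes it as oxidative.

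OCA2 has been studied mostly in pigment cells. There its product conducts chloride across the melanosome membrane and raises the pH inside, and tyrosinase, which starts melanin synthesis, works poorly in an acid melanosome. Loss of the gene causes oculocutaneous albinism in humans and the pink-eyed dilution coat colour in mice. In human melanocytes an enhancer within the neighbouring HERC2 gene controls it. In the Sscrofa11.1 annotation of RefSeq the protein-coding genes beside OCA2 are HERC2, a ubiquitin ligase, on one side and CFC1B on the other. Neither of them has a name among the 550 listed probe sets.

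OCA2 signal was high in every longissimus dorsi array and low in every soleus array. Values are log2 expression relative to the median of the probe set over the 6 arrays, so that they show differences and not levels. Longissimus dorsi replicates 1, 2 and 3 had centred values of 1.77, 2.29 and 1.54. Soleus replicates 1, 2 and 3 had centred values of -1.92, -1.54 and -1.93. The muscles did not overlap, as was the case, with soleus lower, for 8.11% of all probe sets. The mean was 1.87 ± 0.39 in longissimus dorsi and -1.79 ± 0.22 in soleus (SD, n = 3 arrays each).

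The difference of the means was -3.66 on the log2 scale, soleus minus longissimus dorsi, or 12.7-fold. Over the 9 pairs of a longissimus dorsi and a soleus array, the log2 difference ran from 3.07 to 4.22 in favour of longissimus dorsi, or from 8.41-fold to 18.6-fold. The smallest of these came from longissimus dorsi replicate 3 and soleus replicate 2. These are the middle values of the 6, which the centring on the median makes mirror images of each other. Within a muscle the values spanned 0.76 in longissimus dorsi and 0.39 in soleus, so that the smallest difference between muscles was several times the widest spread within one. The pooled SD within muscles was 0.32, against a median of 0.24 over all probe sets, and 68.9% of probe sets had a smaller one. OCA2 was thus no more tightly measured than most. The share of its sum of squares that lay between the muscles was 98.1%, where the median probe set had 17.3%.

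**Figure D1:**
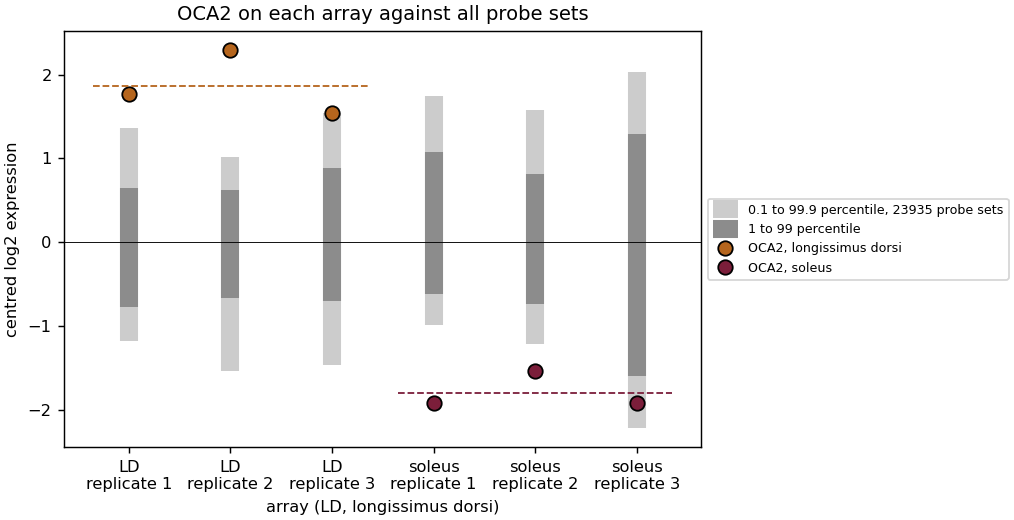
Centred log2 expression (vertical axis) of OCA2 on each of the 6 arrays (horizontal axis), as points with the muscle means as dashed lines. The bars give the central ranges of all 23935 probe sets on the same array; OCA2 lies above the darker bar on the 3 longissimus dorsi arrays and below it on the 3 soleus arrays, and soleus replicate 3 has the widest bars.

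OCA2 was near the edge of every array's values. On longissimus dorsi replicates 1, 2 and 3 it was the number 9, 3 and 26 from the top of 23935 centred values. On soleus replicates 1, 2 and 3 it was the number 2, 5 and 82 from the bottom. The less extreme place on soleus replicate 3 came with a wider array and not with a higher OCA2 value. The SD over probe sets was 0.50 on that array and 0.24 to 0.31 on the other 5. Without soleus replicate 3 the OCA2 difference was -3.60.

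Among all probe sets OCA2 had the largest fall in soleus. By absolute difference it was number 2, after a probe set with no gene name that was higher in soleus by 4.94. Number 4 was a probe set titled actin alpha cardiac 1, higher in soleus by 2.91. The 99th percentile of the absolute difference was 1.10 and the median 0.17. OCA2 was also number 2 by the gap between the muscles, and 1 of 3 probe sets at 8-fold or more. In the authors' deposited table its fold of 12.7 was number 2 of 550 and its unadjusted p-value of 0.000143 number 7. That table keeps probe sets within limits of 1.5 on fold and 0.05 on p, and lists no further OCA2 probe set just inside them. At the same limits on unadjusted p and fold in limma, 2.20% of probe sets were lower in soleus. At an adjusted p under 0.05 in limma, 0.00836% of probe sets were called in either direction, which is 2 of 23935. OCA2 was among both sets, and since the table it was chosen from used the same contrast, nothing is read from this. The adjusted call of OCA2 was lost without longissimus dorsi replicate 1, where 1 probe set was called and none lower in soleus.

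**Figure D2:**
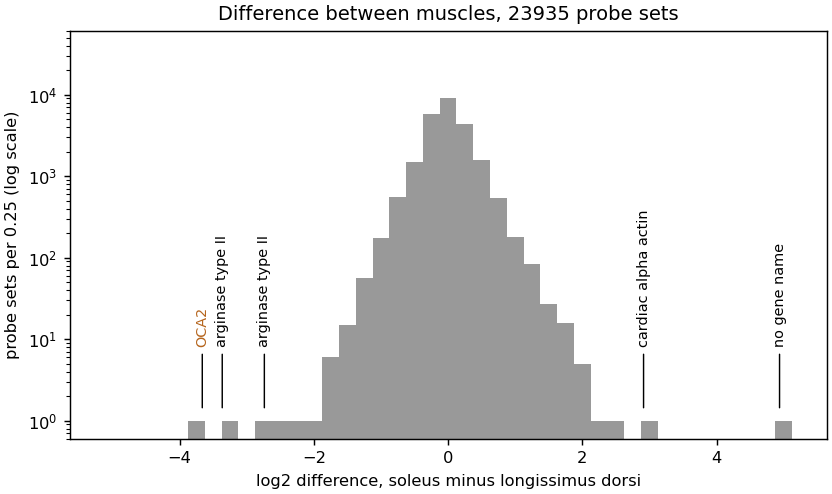
Number of probe sets (vertical axis, log scale) by log2 difference, soleus minus longissimus dorsi (horizontal axis), for 23935 probe sets. The 5 largest absolute differences are named; OCA2 at -3.66 is the leftmost, and a probe set with no gene name at 4.94 the rightmost.

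Replicate 2 had the highest OCA2 value in both muscles. Its deviation from the muscle mean was 0.42 in longissimus dorsi and 0.26 in soleus. The deviations of replicate 1 were -0.09 and -0.13, and those of replicate 3 were -0.33 and -0.13. The labels do not say that a number marks a pig, although both muscles came from the same 3 pigs. Between samples of the same number, OCA2 differed by -3.70, -3.83 and -3.46 for replicates 1, 2 and 3.

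The values of soleus replicates 1 and 3 were 0.0017 apart. In 3.52% of all probe sets the 2 lowest soleus values lay within 0.01 of each other. Among the 147 probe sets lower in soleus by 2-fold or more, OCA2 was the only one with this. The limit of 0.01 was set with the OCA2 values known, so nothing is read from its being met. The centred values hold no intensity, so whether the soleus signal of OCA2 lay at the background of the arrays was not tested. If it did, the fold would be a lower bound. In whole muscle, fewer cells that contain the transcript and less transcript per cell cannot be told apart.

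Of the other genes of pigmentation, none was named among the listed probe sets. The 3 lists held 39 genes. Of all probe sets, 2.29% were listed and 1.39% were listed with a name, so that few or no members of any list of this size would be named. The list of melanosome proteins and enzymes (11 genes) includes tyrosinase (TYR), TYRP1 and DCT, the enzymes of melanin synthesis, and PMEL, which forms the melanosome's fibrils. The list of melanocyte regulators (10 genes) includes MITF, the main transcription factor of pigment cells, the receptor kinase KIT and the melanocortin receptor MC1R. The list of melanosome biogenesis and transport (18 genes) includes RAB27A, MLPH and MYO5A, which carry melanosomes along actin. A list of 16 genes of organelle ion and proton transport, and one of 14 genes that lie near OCA2 in human or other mammalian genomes, also had 0 named members. Only listed probe sets carry names, so the values of these genes were not analysed here, and the counts do not show that they were alike in the 2 muscles.

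Markers of other cells were named for 4 of 7 marker lists, with 1 gene each. The melanocyte list (8 genes), the keratinocyte list (4) and the adipocyte list (4) had 0. Myelin basic protein (MBP), from the Schwann cell and nerve list of 6, ran in the same direction as OCA2. Its centred values were 0.59, 0.45 and 0.37 in longissimus dorsi replicates 1, 2 and 3 and -0.56, -0.37 and -0.38 in those of soleus. The log2 difference of MBP was -0.91 (limma adjusted p = 0.269), so it did not pass. The part of nerve or Schwann cells in the OCA2 difference was not tested. LAPTM5, 1 of 3 leukocyte genes and matched by its title, differed by 0.65 in the opposite direction (limma adjusted p = 0.479). Both MBP and LAPTM5 could be found only because the authors had listed them for a difference in this same contrast. That they differed, and the least size of their differences, was thus set by the choice, and nothing is read from it.

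The muscle labels could be set against few fibre markers. MYH4, which encodes the myosin of the fastest fibres and is 1 of 7 fast fibre genes, differed by -0.59, with higher values in longissimus dorsi (limma adjusted p = 0.479). The probe set matched to MYH7 by its title, similar to bovine slow myosin heavy chain and 1 of 7 slow fibre genes, also had higher values in longissimus dorsi, by a log2 difference of -0.98 (limma adjusted p = 0.306). MYH4 thus ran the way the fast and oxidative labels would have it and the slow myosin probe set the other way. Neither difference passed at a limma adjusted p under 0.05. Both were named because the authors had listed them, by 1.5-fold and an unadjusted p of 0.05 in this same contrast. The title gives the slow myosin as only moderately similar.

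The named transcripts most like OCA2 over the 6 arrays were likewise higher in longissimus dorsi, but most by far less. Likeness is Pearson's r of the centred values over 6 arrays, and it is a description that mostly reflects the muscle difference itself. Names were at hand only for probe sets that the authors listed at 1.5-fold or more in this same contrast. The shared direction and the least size of these differences were thus set by the choice. The closest were phosphatidylinositol glycan class C, an enzyme subunit of GPI anchor synthesis (r = 0.99, log2 difference -0.62), and renalase, a flavoprotein (r = 0.99, -1.17). Arginase type II, the mitochondrial arginase, followed with r = 0.99 and was alone among the 8 in its size of difference (-3.36). Then came a transcript titled vasopressin-induced protein (r = 0.98, -0.77) and MBP (r = 0.98). The last 3 were nucleosome assembly protein 1-like 2 (r = 0.98, -1.37), ALDH2, the mitochondrial aldehyde dehydrogenase (r = 0.98, -0.65), and the E3 ligase RNF34, given by its title (r = 0.97, -0.67).

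**Figure D3:**
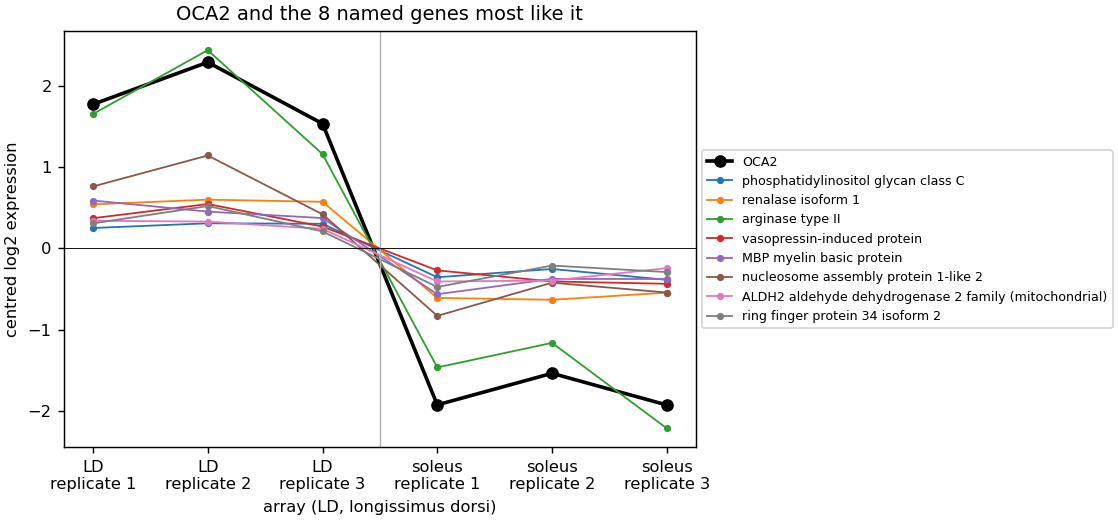
Centred log2 expression (vertical axis) on the 6 arrays (horizontal axis) for OCA2, in black, and the 8 named genes with the highest Pearson correlation with it. Lines join replicates only to guide the eye; arginase type II runs close to OCA2, and the values of the other 7 genes reach 1.14 at most.

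Arginase type II and OCA2 put the arrays in the same order, from longissimus dorsi replicate 2 at the top to soleus replicate 3 at the bottom. For OCA2 the order of soleus replicates 1 and 3 rests on a difference of 0.0017 and is close to a tie. Arginase type II had centred values of 1.65, 2.44 and 1.16 in longissimus dorsi replicates 1, 2 and 3. In soleus replicates 1, 2 and 3 it had -1.46, -1.16 and -2.21. A further arginase type II probe set had the same order, with a log2 difference of -2.74. With the muscle means removed, the deviations of arginase type II and OCA2 correlated at r = 0.89 over the 6 arrays. The deviations of nucleosome assembly protein 1-like 2 (r = 0.92), the retinoid receptor RXRG (r = 0.91) and RNF34 (r = 0.90) did so as closely, and those of a transcript titled 2B28 at r = 0.87. Renalase, among the closest by value, had deviations that did not follow those of OCA2 (r = -0.0046). These correlations share the arrays and rest on 6 points with 2 means removed. Apart from renalase, the genes given here were the 5 named ones with the highest correlation of deviations. Their high values were thus set by the choice.

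Transcripts with the opposite pattern were led by a probe set with no gene name (r = -0.996, log2 difference 0.73). DNMT1, the maintenance DNA methyltransferase (r = -0.99, 0.61), and glypican 4, a heparan sulfate proteoglycan of the cell surface (r = -0.99, 0.71), came next. The probe set with the largest difference of all (4.94) was the fifth, at r = -0.99, but at Spearman's rho = -0.54. Its order within the muscles was not the reverse of that of OCA2. In soleus the order was the same, and in longissimus dorsi replicate 2 was highest in both, with replicates 1 and 3 tied in this probe set. The 3 highest correlations with OCA2 belonged to probe sets with no gene name, whose log2 differences were -0.19, -0.37 and -0.25. In all, 89 probe sets had an r with OCA2 above 0.95 and 57 one below -0.95. Among the 20 with the highest r the log2 differences ran from -3.36 to -0.14 with a median of -0.33, so that a like pattern did not mean a like size.

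The OCA2 difference held its direction and size under each way of scaling the arrays that was tried. It was -3.97 after quantile normalization, -3.64 with each array's median subtracted and -3.82 with the arrays scaled to one spread. Over the 6 arrays left out in turn, it ran from -3.83 to -3.45. OCA2 was number 2 by absolute difference in each of these 9 settings.

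**Figure D4:**
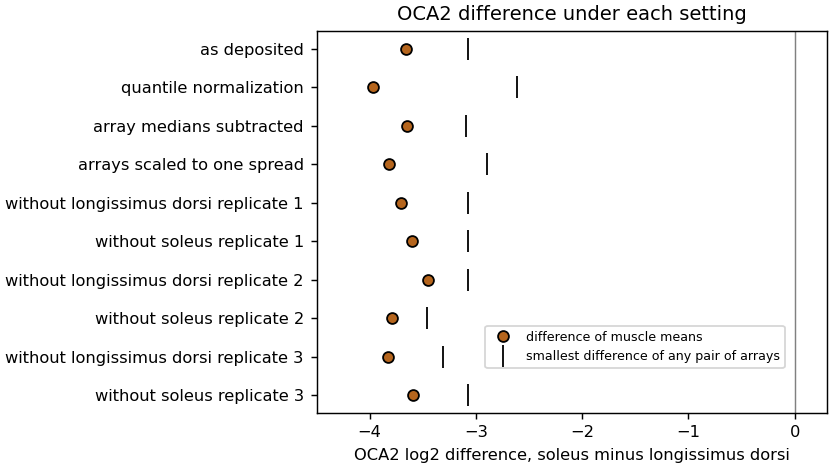
OCA2 log2 difference, soleus minus longissimus dorsi (horizontal axis), as the difference of means (points) and as the smallest difference of any pair of arrays (ticks), for the values as deposited and 9 other settings (vertical axis). The means lie between -3.97 and -3.45, and the tick nearest to 0 is at a distance of 2.61 from it.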

How the data were processed

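Per the labels' protocols, total RNA was isolated (TRIzol, then RNeasy), converted to biotinylated cRNA and read on Affymetrix porcine arrays. MAS5 version 2.3.1 is named without a role in the submitters' processing notes. The deposited log2 values are relative to the median of a probe set over the 6 arrays, a centring by the authors that was found from the values (medians within 5e-07 of 0). The authors' table gives, per the file headers, an unadjusted p-value of an unpaired test and a linear fold. It holds gene names for 333 of its 550 probe sets, and no other names were used.

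The 188 controls were left out of 24123 probe sets. The muscles were compared, as soleus minus longissimus dorsi, in limma 3.58.1 (R 4.3.3, lmFit and eBayes, Benjamini-Hochberg adjustment, threshold 0.05), and the fit was tested on simulated data. Descriptions were computed in Python 3.11.15. OCA2, the gene lists and the rules were chosen with earlier results of these data known. Named genes were OCA2, the 5 highest and lowest correlations with it, the 8 closest named genes, the 5 closest by deviation, the 5 largest differences and the named list members. LAPTM5 and MYH7 were matched by title. Probe sets with no name are not all identified in the text. Samples were not treated as paired, because same-numbered samples had deviations that correlated at -0.14, 0.11 and 0.25. Pigs of one litter share parents, and the number of arrays limits the precision.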

Additional observations from a re-analysis of the deposited data

How the results depend on the processing

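The OCA2 difference and its rank moved by less than the spread between replicates under each alternative run. Its gap of 3.07 became 2.61 after quantile normalization and lay between 3.07 and 3.46 when single arrays were left out. Leaving out an array could not make the OCA2 gap smaller, so nothing is read from that range. The replicate block left the difference at -3.66, because the design is balanced, and made the 2 adjusted calls 7. These calls were 6 with quantile normalization, 4 with the arrays scaled to one spread, 10 with a variance trend, and 1 to 4 over the left-out arrays. The 1219 probe sets past the unadjusted limits became 549 with the authors' test and lay between 797 (without longissimus dorsi replicate 2) and 2501 (without soleus replicate 1) when single arrays were left out. The 3395 probe sets without overlap became 4559 (without longissimus dorsi replicate 2) to 7438 (without soleus replicate 1), since fewer arrays overlap less often. Of the 20 probe sets most like OCA2, 8 stayed among the top 20 with quantile normalization, 12 with array medians subtracted, 16 with the arrays scaled to one spread, 1 with Spearman's correlation, where many tie, 0 with deviations from the muscle means, and 4 to 9 over the left-out arrays. The other causes were not tested, and the genes named as most like OCA2 depend on most of these choices. Counts of named list members could not change with these settings and were not recomputed. Signal over background is unknown.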
